A study of Mus musculus with 28 samples.

Results

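The 38 genes described here form a set of hepatic fatty acid oxidation genes and targets of the nuclear receptor PPAR alpha, chosen by name out of the 32544 genes of the count tables. All 38 were found in both tables, all 38 passed the low-count filter in each, and all carry the same symbol in the GENCODE M21 annotation of the mouse genome build GRCm38. By role they comprised 2 regulators, 4 genes of carnitine-dependent transport, 9 enzymes of the mitochondrial beta-oxidation spiral and 3 electron transfer flavoprotein genes. A further 7 were peroxisomal, 5 belonged to omega-oxidation, 4 were acyl-CoA thioesterases and 4 were other PPAR alpha targets. The samples were RNA-seq libraries of whole liver from C57BL/6 mice, 13 weeks old by the labels. The controls (CT) carried floxed alleles, and the EC-Myc KO mice (KO) had lost c-Myc in endothelial cells through a tamoxifen-induced Cre, whose driver the labels do not name. Mice of both genotypes were given tamoxifen at 5 weeks of age and then, 2 weeks later, began 5 weeks of feeding with a control diet low in fat (CTD) or with a diet rich in fat and cholesterol (HFC). Each of the 4 combinations of genotype and diet held 4 males and 3 females, 28 livers in all.

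Hepatocytes burn fatty acids in mitochondria, which take up long chains through the carnitine shuttle, and in peroxisomes, which shorten very long and dicarboxylic chains. Omega-oxidation by the Cyp4a cytochromes makes the dicarboxylic acids, and acyl-CoA thioesterases release free fatty acids from coenzyme A. PPAR alpha, activated by fatty acids during fasting or lipid loading, binds DNA with RXR at direct repeats of a hexamer and induces genes in all of these routes.

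Library totals were 22154774 to 22652285 counts in males and 18741939 to 19195502 in females. Levels are given as CPM, the count of a gene as a proportion of its library on the usual CPM scale, after each library total was adjusted with a TMM factor; these factors are computed so that most genes do not differ between libraries. The sexes were deposited as separate tables and were scaled separately, so a level set across them also carries that difference. Fold changes (log2, with their standard error, SE) and p-values come from edgeR's quasi-likelihood test, adjusted by the Benjamini-Hochberg method over all genes tested, and a gene is said to have risen or fallen where the adjusted p was under 0.05. The labels give every library its own number, taken here as 1 animal each, so the p-values measure the spread between these animals. Scaling mattered for small changes: on library totals alone, without TMM factors, the median log2 fold change of all genes on HFC moved upward, for CT males from -0.01 to 0.22 and for KO males from -0.02 to 0.26. For females it moved from 0.00 to 0.30 (CT) and from 0.02 to 0.32 (KO). Transcripts of Myc, the targeted gene, ranged from 3.58 to 12.4 CPM in CT livers and from 3.09 to 20.5 CPM in KO livers, with no test passed. Whole liver holds many cell types, so this level does not check the deletion in endothelial cells.

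Among the 38 genes Fabp1, which encodes the liver fatty acid binding protein, had the highest level per kilobase of exon in CT livers on CTD, at 5219 ± 951 CPM per kb in males (SD, n = 4) and 5889 ± 631 in females (SD, n = 3). In males it was followed by the mitochondrial thiolase Acaa2 at 385 ± 29.7, the peroxisomal thiolase Acaa1b at 233 ± 52.5 and Cyp4a10 at 221 ± 124 CPM per kb. The ranges of Acaa1b and Cyp4a10 overlapped, so their order is not resolved. In females Cyp4a10 came next at 561.1 ± 119, followed by Acaa1b at 463 ± 74.6, Cyp4a14 at 457 ± 46.1 and Acaa2 at 442 ± 8.62 CPM per kb, a group in which neighbouring ranges overlapped. The lowest level in both sexes belonged to Pdk4, the kinase that inhibits pyruvate dehydrogenase, at 0.722 ± 0.212 CPM per kb in males and 1.14 ± 0.427 in females. Ppargc1a, a coactivator of PPAR alpha, came just above it at 2.98 ± 0.182 and 2.53 ± 0.171 CPM per kb.

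**Figure D1:**
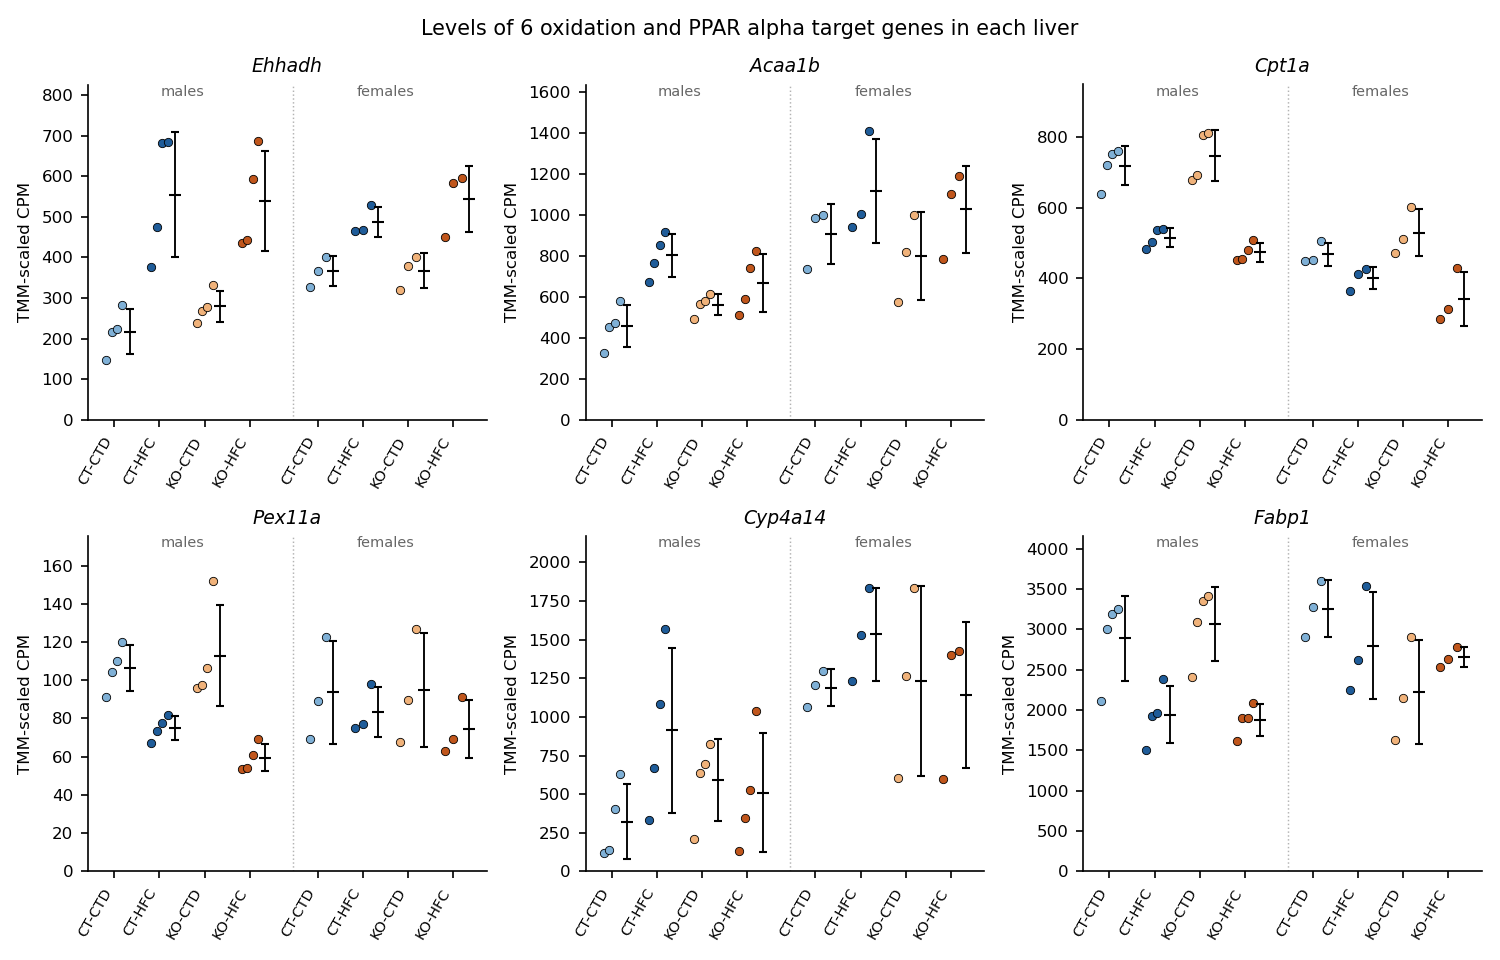
TMM-scaled CPM of 6 of the genes in each of the 28 livers, by genotype and diet, with males left and females right of the dotted line; points are animals, and the bar beside each group is its mean with SD. On this scale Ehhadh sits higher on HFC in all 4 pairs of groups, while Cpt1a sits lower on HFC in all 4, and Cyp4a14 spreads from 116 to 1572 CPM among CT males.

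Where genes of this set passed on HFC with TMM scaling, more fell than rose. Ehhadh, the peroxisomal bifunctional enzyme, rose in CT males, KO males and KO females, and most other genes that passed the test fell. In CT males 2 of the 38 genes rose (Ehhadh and Acaa1b) and 8 fell, against 20% of all 14078 genes tested that passed in either direction (10.6% higher and 9.4% lower). In KO males 1 rose and 21 fell, where 29.1% of all genes passed (15.5% higher and 13.6% lower). No gene of the set passed in CT females, where 2.19% of all 13999 genes did (0.936% higher and 1.26% lower); at an unadjusted p under 0.05 there were 1 higher and 5 lower (1489 and 1352 of all genes), DESeq2 called 0, limma called 1, and library totals called 1. In KO females 1 rose and 3 fell, with 8.59% of all genes passing (3.94% higher and 4.65% lower). The median log2 fold change over the 38 genes was -0.13 in CT males, -0.33 in KO males, -0.17 in CT females and -0.31 in KO females, and on library totals it was 0.10, -0.06, 0.11 and -0.01.

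Library totals move the values of nearly all genes upward, so falls are lost and rises gained by construction. On library totals 5 genes rose and 2 fell in CT males, against 29.3% higher and 2.91% lower of all genes (32.2% together). In KO males 3 rose and 8 fell, against 39.7% higher and 3.63% lower (43.3% together). In CT females 1 rose and 0 fell, against 12.1% and 1.04% of all genes (13.1% together), and in KO females 4 rose and 0 fell, against 24% and 2.71% (26.7% together). Of the 8 genes that fell in CT males, Cpt1a and Cyp4a32 still passed on library totals, and all 8 kept a negative sign. Of the 21 that fell in KO males, 8 still passed (Cpt1a, Cpt2, Slc25a20, Eci2, Pex11a, Cyp4a32, Angptl4 and Fabp1), and 17 kept a negative sign. None of the 3 falls of KO females passed on library totals, although all 3 values stayed negative.

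**Figure D2:**
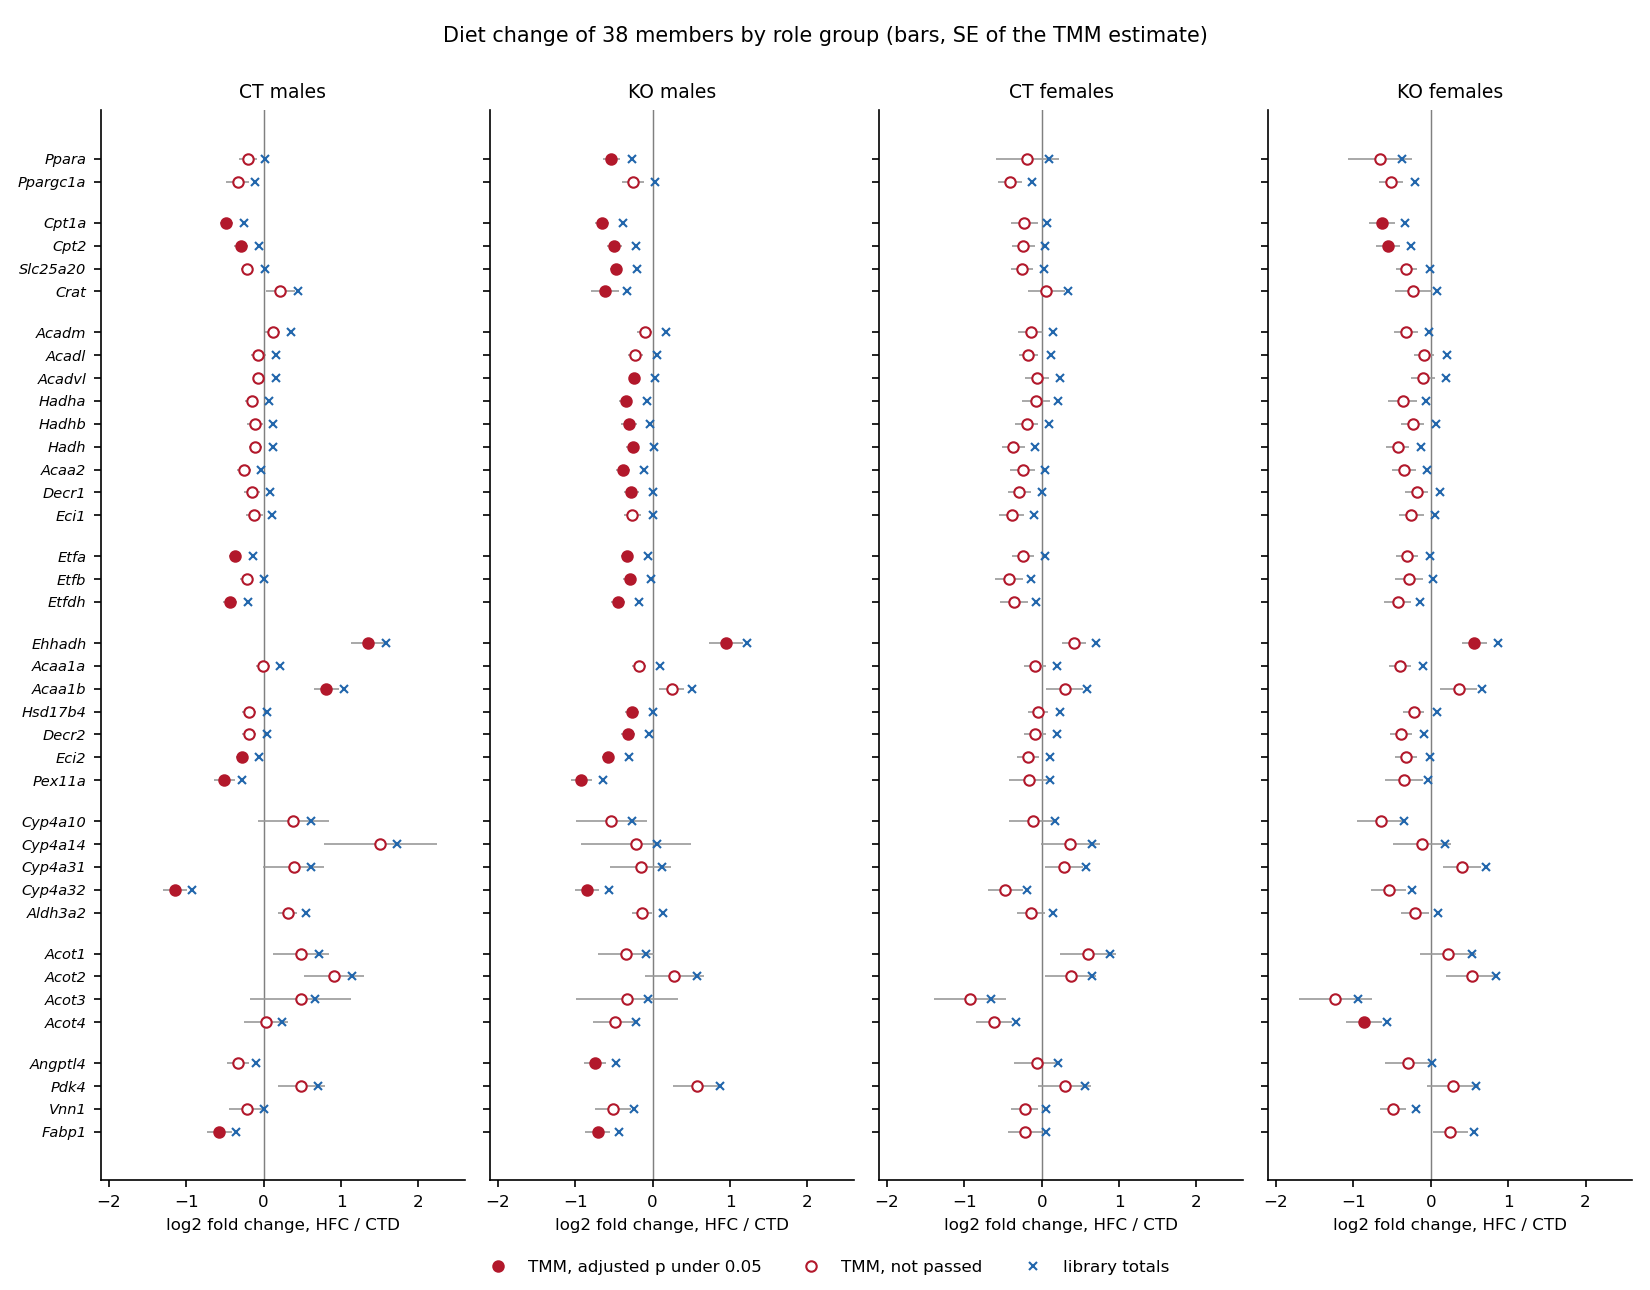
Log2 fold change of HFC over CTD for the 38 genes, grouped by role from the regulators at the top to the other PPAR alpha targets at the bottom, in CT and KO animals of each sex. Filled circles passed an adjusted p under 0.05 with TMM scaling, open circles did not, bars are SE, and crosses give the same value on library totals, which lie to the right of the circles and in KO males bring Acadvl, Hadh, Decr1 and Hsd17b4 to or just above 0.

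The genes whose diet groups did not overlap were counted as well, on TMM-scaled levels. In CT males 2 were higher and 11 lower in every HFC animal, against 11.4% higher and 10.2% lower of all genes (21.6% together). In KO males 1 was higher and 22 were lower, against 15.4% and 14.7% of all genes (30% together). In CT females 3 were higher (Ehhadh, Acot1 and Cyp4a31) and 12 lower, against 14.3% and 14.1% of all genes (28.4% together). In KO females 1 was higher and 16 were lower, against 12.2% and 14.1% of all genes (26.4% together).

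Markers of other cell types moved with the diet in the same livers. Summed over 12 macrophage and Kupffer cell markers, CPM ranged from 428 to 628 in CT males on CTD and from 867 to 1376 on HFC, and 11 of the 12 markers rose. In KO males the sum ranged from 353 to 439 on CTD and from 1083 to 1352 on HFC, and all 12 rose. In females none of the 12 passed, with sums of 356 to 1089 CPM (CT on CTD), 805 to 1206 (CT on HFC), 369.8 to 995 (KO on CTD) and 639 to 1919 (KO on HFC). Of 10 T and NK cell markers 5 rose in CT males and 7 in KO males, and of 6 B cell markers 1 and 5 rose. In KO males 3 of 10 endothelial, 3 of 10 stellate cell and 3 of 6 cholangiocyte markers also rose, and in CT males 1, 0 and 0. On library totals the numbers were 6, 8 and 3 in KO males and 2, 0 and 1 in CT males, where 39.7% and 29.3% of all genes rose. In females 1 endothelial marker (KO) and 1 of 5 erythroid markers (in each genotype) rose. On library totals 5 of 10 T and NK cell and 5 of 10 endothelial markers rose in CT females, and 4 of 10 endothelial, 5 of 10 stellate cell and all 5 erythroid markers in KO females. Of 9 hepatocyte markers 2 fell in CT males, 3 in KO males, 0 in CT females and 3 in KO females, and on library totals the numbers were 1, 1, 0 and 2. On library totals 1 hepatocyte marker also rose in CT females. With TMM scaling the summed median CPM of the 9 went from 94802 on CTD to 83391 on HFC in CT males and from 102291 to 78692 in KO males. In females that median went from 169032 to 130168 (CT) and from 173727 to 105246 (KO). These sums were not computed on library totals. There the median log2 fold change of the 9 markers was -0.060 in CT males, -0.060 in KO males, 0.094 in CT females and 0.0078 in KO females. The adipocyte markers summed to at most 1.15 CPM in any liver, with Lep at 0 throughout. On library totals all 12 macrophage markers passed in both male genotypes. The part of these cell types in the changes of the oxidation genes was not tested, and in whole tissue fewer hepatocytes and less RNA per hepatocyte cannot be told apart.

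The sequences upstream of the annotated starts of 3 of these genes are shown because the genes moved differently on HFC in males: Ehhadh rose, while Cpt1a and Fabp1 fell with TMM scaling (for Fabp1 in CT males the value on library totals missed the threshold). RefSeq promoter windows (250 bases before to 50 after each start, GRCm38.p6) were matched for 29 of the 38 genes, with 30 windows. The hexamer AGGTCA, read on both strands, is a single arm of the repeat that PPAR alpha and RXR bind and occurred in 7 of these 30 windows (23.3%) and in 16.3% of all 32851. The repeat AGGNCANAGGNCA was found for Fabp1 alone among them, and in 0.381% of all windows, while the exact repeat AGGTCANAGGTCA, which the looser form also covers, was found in none of the 30 and in 0.0396% of all. In the lines below, the printed bases lie before the RefSeq start and hold no annotated exon of the gene, and they are written 5′ to 3′ on the strand of the gene, and capitals mark a match of the looser repeat for Fabp1 and of the hexamer for Cpt1a, both on the opposite strand. The matches begin 67 bases before the start for Fabp1 and 94 bases before it for Cpt1a. The printed lines stop 52 bases short of the start for Fabp1 and 16 bases short of it for Cpt1a, whereas that of Ehhadh runs up to it. The upstream bases of Ehhadh hold no match. The other windows with the hexamer belonged to Acadm, Acadvl, Acot3 and Acot4, none of which fell in CT males. With TMM scaling Acadvl fell in KO males (-0.24, edgeR adjusted p = 0.018) and Acot4 in KO females (-0.86, edgeR adjusted p = 0.0389), and neither passed on library totals. Acadm and Acot3 fell in no diet comparison. The windows of Etfdh, Etfa, Eci2, Pex11a, Cpt2 and Cyp4a32, which fell in CT males with TMM scaling, hold no hexamer. A relation between the hexamer and the diet change was not tested. The regions are chr6:71199629-71199826 (plus strand) for Fabp1, chr19:3323051-3323284 (plus strand, within the span of the Cpt1a gene in GENCODE, between exons) for Cpt1a and chr16:21787835-21788084 (minus strand) for Ehhadh. A match of letters is a description, not a measured binding site.
Fabp1: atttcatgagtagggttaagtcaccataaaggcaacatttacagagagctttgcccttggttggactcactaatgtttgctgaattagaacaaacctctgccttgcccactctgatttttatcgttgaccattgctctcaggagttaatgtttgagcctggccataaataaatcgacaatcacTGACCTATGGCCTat
Cpt1a: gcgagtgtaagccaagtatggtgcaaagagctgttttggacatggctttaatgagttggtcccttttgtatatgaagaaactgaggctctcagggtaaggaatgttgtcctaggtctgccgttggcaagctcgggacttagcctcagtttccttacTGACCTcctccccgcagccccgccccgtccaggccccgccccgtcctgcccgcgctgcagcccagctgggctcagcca
Ehhadh: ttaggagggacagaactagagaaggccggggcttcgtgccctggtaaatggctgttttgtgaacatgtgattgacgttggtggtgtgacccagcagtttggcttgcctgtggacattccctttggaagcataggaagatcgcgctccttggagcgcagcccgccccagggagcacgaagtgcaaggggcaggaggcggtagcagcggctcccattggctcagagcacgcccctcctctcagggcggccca

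Ppara encodes the receptor itself. In males, Ppara was at 133, 141, 157 and 159 CPM in CT livers on CTD and at 115, 121, 124 and 152 on HFC. The KO males had 148, 152, 158 and 164 CPM on CTD and 90.4, 94.4, 111 and 133 on HFC. The KO males on HFC all lay below those on CTD, whereas the CT groups overlapped. Ppara fell in KO males (log2 fold change -0.53, SE 0.11, edgeR adjusted p = 0.00197), and its value on library totals was -0.26 (adjusted p = 0.0552). In CT males the value was -0.20 (edgeR adjusted p = 0.218). The females had 40.3, 65.7 and 73.98 CPM (CT on CTD), 51.2, 51.8 and 55.1 (CT on HFC), 56.6, 64.3 and 92.2 (KO on CTD) and 18.3, 44.5 and 72.5 (KO on HFC). The female diet groups overlapped in both genotypes, and 1 KO female on HFC had the lowest level of all 28 livers. Ppargc1a encodes the coactivator. CT males had Ppargc1a levels of 18.3, 19.04, 20.5 and 20.8 CPM on CTD and 13.1, 14.5, 14.8 and 19.97 on HFC. In KO livers of males Ppargc1a stood at 13.7, 16.5, 20.05 and 20.3 CPM with CTD and 11.99, 13.4, 16.9 and 16.999 with HFC. In CT females Ppargc1a was at 16.01, 16.1 and 17.99 CPM on CTD and 10.9, 12.4 and 14.6 on HFC, and in KO females at 13.8, 14.9 and 19.01 and 9.73, 11.5 and 12.3. Only the female diet groups were fully apart, with the HFC animals lower. No Ppargc1a comparison of the diets passed, the nearest being -0.51 (edgeR adjusted p = 0.0583) in KO females.

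Of the 4 genes of carnitine-dependent transport all 4 fell in KO males, 2 fell in CT males, 0 in CT females and 2 in KO females with TMM scaling, and on library totals 3 passed in KO males (Cpt1a, Cpt2 and Slc25a20), 1 in CT males (Cpt1a) and 0 in females. Cpt1a encodes the outer-membrane carnitine palmitoyltransferase that controls entry of long chains into mitochondria. Cpt1a measured 639, 721, 752 and 760.2 CPM in the CT males fed CTD and 482, 502, 536 and 539 in those fed HFC. KO males gave 677, 694, 807 and 811 CPM on CTD against 451, 453, 480.2 and 509 on HFC. No animal on HFC reached the lowest level seen on CTD in the same genotype. Cpt1a fell in CT males (log2 fold change -0.48, SE 0.09, edgeR adjusted p = 0.00139) and in KO males (log2 fold change -0.66, SE 0.09, edgeR adjusted p = 3.99e-05). On library totals both male falls still passed, at -0.25 (adjusted p = 0.0193) and -0.38 (adjusted p = 0.000919). Female livers held 448, 451 and 506 CPM of Cpt1a (CT, CTD), 366, 413 and 426 (CT, HFC), 473, 511 and 602 (KO, CTD) and 285, 313 and 428 (KO, HFC). With TMM scaling the diet groups were again apart in both genotypes of females. In KO females Cpt1a fell by TMM scaling (log2 fold change -0.63, SE 0.17, edgeR adjusted p = 0.037), with -0.33 (adjusted p = 0.131) on library totals, and it no longer passed without KO-CTD 307, KO-CTD 309, KO-CTD 317, KO-HFC 412 or KO-HFC 419 (adjusted p = 0.0611 to 0.133). In CT females the value was -0.22 (edgeR adjusted p = 0.484), with 0.065 (adjusted p = 0.784) on library totals.

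Cpt2, the inner-membrane partner of Cpt1a, stood at 156 ± 16.6 CPM in the CT males fed CTD and 128 ± 7.11 in those fed HFC (mean ± SD, n = 4). In KO males it went from 163 ± 12.9 to 116 ± 12.2 CPM, with no overlap between diets in either genotype. The changes were -0.29 (edgeR adjusted p = 0.0323) in CT males and -0.49 (edgeR adjusted p = 0.00068) in KO males, with -0.053 (adjusted p = 0.621) and -0.22 (adjusted p = 0.032) on library totals. The fall in CT males no longer passed without CT-CTD 301, CT-CTD 305, CT-CTD 313, CT-HFC 417 or CT-HFC 418 (adjusted p = 0.0634 to 0.109). In KO females Cpt2 fell from 146 ± 12.7 to 99.2 ± 9.69 CPM (log2 fold change -0.56, SE 0.15, edgeR adjusted p = 0.0394), with -0.25 (adjusted p = 0.135) on library totals, and the call was lost without KO-CTD 307, KO-CTD 309, KO-CTD 317, KO-HFC 412 or KO-HFC 419 (adjusted p = 0.0777 to 0.143). Slc25a20, which exchanges acylcarnitine for carnitine across the inner membrane, fell in KO males from 118 ± 7.25 to 85.2 ± 10.48 CPM (log2 fold change -0.47, SE 0.08, edgeR adjusted p = 0.000251; on library totals -0.20, adjusted p = 0.0377). Its value in CT males was -0.21 (edgeR adjusted p = 0.068). Crat, the carnitine acetyltransferase, fell in KO males from 83.9 ± 12.8 to 54.8 ± 11.4 CPM (log2 fold change -0.61, SE 0.19, edgeR adjusted p = 0.0216), with -0.34 (adjusted p = 0.184) on library totals. The CT males differed in sign for Crat, at 0.22 (edgeR adjusted p = 0.449). The Crat fall was lost without KO-CTD 298, KO-CTD 303, KO-HFC 539 or KO-HFC 540 (adjusted p = 0.0533 to 0.0688).

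Changes in the mitochondrial beta-oxidation spiral were small. Of its 9 genes 6 fell in KO males with TMM scaling, 0 did on library totals, and with TMM scaling none passed in CT males, CT females or KO females. Acadm, the medium-chain acyl-CoA dehydrogenase, did not pass in any diet comparison with TMM scaling and rose in CT males on library totals, at 0.35 (adjusted p = 0.00813). With CTD, the CT males had 203, 233, 247 and 261 CPM of Acadm transcripts, and with HFC 225, 262, 263 and 274. For the KO males the levels of Acadm were 247, 249, 262 and 297 CPM on CTD and 221, 234, 247 and 282 on HFC. CT females gave 264, 274 and 287 CPM on CTD and 214, 248 and 286 on HFC, and KO females 252, 253 and 310.3 and 182, 217 and 253. Its diet groups overlapped in both genotypes and both sexes, and the male values were 0.12 (edgeR adjusted p = 0.43) in CT and -0.10 (edgeR adjusted p = 0.485) in KO animals. Acadl, the long-chain dehydrogenase, did not pass in any diet comparison either. In males, Acadl was at 179, 181, 194 and 222 CPM in CT livers on CTD and at 168, 169, 188 and 215 on HFC. The KO males had 193, 198, 212 and 213 CPM on CTD and 160.2, 165, 184 and 191 on HFC. The females had 209, 214 and 236 CPM (CT on CTD), 185, 186 and 213 (CT on HFC), 187, 194 and 219 (KO on CTD) and 179, 181 and 203 (KO on HFC). For Acadl the KO males on HFC all lay below those on CTD, by a narrow margin, at -0.22 (edgeR adjusted p = 0.0833). The other 3 diet comparisons of Acadl overlapped.

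The 6 spiral genes that fell in KO males were Acaa2, Hadha, Acadvl, Hadh, Hadhb and Decr1, of which Acadvl, Hadh and Decr1 had values at or just above 0 on library totals. Levels are given for the first 4 by adjusted p. Acaa2, the thiolase that releases acetyl-CoA, went from 607 ± 8.14 to 467 ± 54.7 CPM (log2 fold change -0.38, SE 0.09, edgeR adjusted p = 0.00486; on library totals -0.11, adjusted p = 0.299). Hadha, the alpha subunit of the mitochondrial trifunctional protein, went from 445 ± 15.05 to 349 ± 21.1 CPM (log2 fold change -0.35, SE 0.09, edgeR adjusted p = 0.00533; on library totals -0.076, adjusted p = 0.504). Both genes were lower in every KO male on HFC than in any on CTD. Acadvl, the very-long-chain dehydrogenase, went from 275 ± 7.92 to 233 ± 21.8 CPM (log2 fold change -0.24, SE 0.07, edgeR adjusted p = 0.018), a fall that turned to 0.032 (adjusted p = 0.71) on library totals. Hadh, the short-chain hydroxyacyl-CoA dehydrogenase, went from 227 ± 15.2 to 189 ± 20.6 CPM (log2 fold change -0.26, SE 0.08, edgeR adjusted p = 0.0252) and likewise turned to 0.013 (adjusted p = 0.891) on library totals. Several of these calls lay near the threshold and were lost when 1 animal was left out. Over these fits the log2 value stayed at -0.36 to -0.28 for Hadhb and -0.31 to -0.24 for Decr1. Acadvl was lost without KO-CTD 304 or KO-HFC 414 (adjusted p = 0.0505 to 0.0627). Hadh was lost without KO-CTD 303, KO-CTD 311, KO-HFC 414 or KO-HFC 540 (adjusted p = 0.0673 to 0.0869). Hadhb, the beta subunit, was lost without KO-CTD 298, KO-CTD 304, KO-CTD 311, KO-HFC 414, KO-HFC 539 or KO-HFC 540 (adjusted p = 0.0504 to 0.0809). Decr1, a dienoyl-CoA reductase for unsaturated chains, was lost without KO-CTD 298, KO-CTD 303, KO-CTD 304, KO-CTD 311, KO-HFC 414, KO-HFC 539 or KO-HFC 540 (adjusted p = 0.0523 to 0.13). The ninth gene, Eci1, an enoyl-CoA isomerase, had -0.26 (edgeR adjusted p = 0.0766) in KO males.

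The electron transfer flavoprotein genes pass electrons from the acyl-CoA dehydrogenases to the respiratory chain. With TMM scaling all 3 fell in KO males and 2 of 3 fell in CT males, while none passed in females, and on library totals none passed. Etfdh encodes the membrane oxidoreductase that hands the electrons to ubiquinone. CT males had Etfdh levels of 239, 247, 268 and 275 CPM on CTD and 180.1, 184, 185 and 212 on HFC. In KO livers of males Etfdh stood at 234, 249, 264 and 268 CPM with CTD and 161, 184, 193 and 207 with HFC. In CT females Etfdh was at 174, 190.0 and 215 CPM on CTD and 141, 149.6 and 162 on HFC, and in KO females at 183, 196 and 203 and 100.3, 161 and 172. The Etfdh diet groups were apart in both genotypes and both sexes, with every HFC group lower on this scale. Etfdh fell in CT males (log2 fold change -0.43, SE 0.09, edgeR adjusted p = 0.00217) and KO males (log2 fold change -0.45, SE 0.09, edgeR adjusted p = 0.000934), with -0.20 (adjusted p = 0.0567) and -0.17 (adjusted p = 0.08) on library totals. Its female values were -0.36 (edgeR adjusted p = 0.28) in CT and -0.43 (edgeR adjusted p = 0.15) in KO animals. Etfa, the alpha subunit of the soluble carrier, fell in CT males from 211 ± 15.5 to 164 ± 10.7 CPM (log2 fold change -0.37, SE 0.08, edgeR adjusted p = 0.00443; on library totals -0.14, adjusted p = 0.163). In KO males Etfa fell from 209.6 ± 9.43 to 166 ± 16.4 CPM (log2 fold change -0.33, SE 0.08, edgeR adjusted p = 0.00507; on library totals -0.062, adjusted p = 0.515). With TMM scaling the levels of Etfa, too, were apart by diet in both genotypes and both sexes. In CT females the Etfa value was -0.24 (edgeR adjusted p = 0.363), with 0.045 (adjusted p = 0.806) on library totals. Etfb, the beta subunit, passed in KO males with -0.30 (edgeR adjusted p = 0.012) and had -0.22 (edgeR adjusted p = 0.0703) in CT males; on library totals the KO value was -0.027 (adjusted p = 0.757).

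The peroxisomal genes split. In CT males 2 of 7 rose and 2 fell, in KO males 1 rose and 4 fell, in CT females none passed, and in KO females 1 rose. Ehhadh catalyses the hydration and dehydrogenation steps on long dicarboxylic chains. Ehhadh measured 148, 216, 223 and 283 CPM in the CT males fed CTD and 376, 475, 682 and 685 in those fed HFC. KO males gave 239, 267, 278 and 332 CPM on CTD against 434, 442, 594 and 686 on HFC. Every male on HFC was above every male on CTD of the same genotype. Ehhadh rose in CT males (log2 fold change 1.35, SE 0.22, edgeR adjusted p = 0.000789) and in KO males (log2 fold change 0.95, SE 0.22, edgeR adjusted p = 0.00444), and neither call was lost when any 1 male was left out. Female livers held 328, 367 and 402 CPM of Ehhadh (CT, CTD), 466, 468 and 530.1 (CT, HFC), 319, 380.1 and 402 (KO, CTD) and 449.5, 583 and 596 (KO, HFC). The female diet groups were apart as well. In KO females Ehhadh rose (log2 fold change 0.56, SE 0.16, edgeR adjusted p = 0.0416), a call lost without KO-CTD 307, KO-CTD 309, KO-CTD 317, KO-HFC 413 or KO-HFC 419 (adjusted p = 0.0514 to 0.15). In CT females it did not pass with TMM scaling (log2 fold change 0.42, SE 0.16, edgeR adjusted p = 0.164) and did on library totals, at 0.71 (adjusted p = 0.0171).

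Acaa1b encodes a peroxisomal thiolase. With CTD, the CT males had 327, 452, 475 and 578 CPM of Acaa1b transcripts, and with HFC 675, 767, 853 and 918. For the KO males the levels of Acaa1b were 490.5, 565, 582 and 613 CPM on CTD and 514, 591, 739.6 and 825 on HFC. The CT males were fully apart by diet, whereas the KO males overlapped. Acaa1b rose in CT males (log2 fold change 0.81, SE 0.17, edgeR adjusted p = 0.00269) and had 0.25 (edgeR adjusted p = 0.282) in KO males, which became 0.51 (adjusted p = 0.0221) on library totals. CT females gave 739, 984 and 1001 CPM on CTD and 941, 1003 and 1408 on HFC, and KO females 577, 821 and 1002 and 785, 1104 and 1193. Both female comparisons overlapped, at 0.30 (edgeR adjusted p = 0.512) in CT and 0.36 (edgeR adjusted p = 0.369) in KO animals, and the latter was 0.66 (adjusted p = 0.0332) on library totals. Acaa1b and Acaa1a share 95.3% of aligned transcript bases, so reads may have been divided between them and both levels are uncertain. Acaa1a had -0.011 (edgeR adjusted p = 0.947) in CT males and -0.17 (edgeR adjusted p = 0.164) in KO males.

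Pex11a encodes a membrane protein of peroxisome division. In males, Pex11a was at 91.3, 105, 110.3 and 119.8 CPM in CT livers on CTD and at 66.9, 73.6, 77.5 and 81.6 on HFC. The KO males had 95.99, 97.4, 106 and 152 CPM on CTD and 53.7, 54.3, 60.9 and 69.2 on HFC. The male diet groups did not overlap, and 1 KO male on CTD stood well above its group. Pex11a fell in CT males (log2 fold change -0.51, SE 0.13, edgeR adjusted p = 0.0128; on library totals -0.28, adjusted p = 0.128) and in KO males (log2 fold change -0.92, SE 0.13, edgeR adjusted p = 8.21e-05; on library totals -0.64, adjusted p = 0.00171). The females had 69.3, 89.1 and 122 CPM (CT on CTD), 74.8, 76.9 and 98.2 (CT on HFC), 67.7, 89.7 and 127 (KO on CTD) and 62.9, 69.2 and 91.4 (KO on HFC). The female diet groups overlapped, at -0.17 (edgeR adjusted p = 0.746) in CT and -0.35 (edgeR adjusted p = 0.412) in KO animals. Eci2, a peroxisomal enoyl-CoA isomerase, fell in KO males from 269 ± 9.01 to 180.3 ± 22.9 CPM (log2 fold change -0.57, SE 0.08, edgeR adjusted p = 5.1e-05; on library totals -0.30, adjusted p = 0.00546). In CT males Eci2 fell from 262 ± 4.51 to 215 ± 7.104 CPM (log2 fold change -0.28, SE 0.08, edgeR adjusted p = 0.0195; on library totals -0.054, adjusted p = 0.608), and the call was lost without CT-HFC 418 (adjusted p = 0.0603). Decr2, the peroxisomal dienoyl-CoA reductase, fell in KO males (log2 fold change -0.32, SE 0.09, edgeR adjusted p = 0.0141; on library totals -0.049, adjusted p = 0.662), a call lost without KO-HFC 414 (adjusted p = 0.0506). Hsd17b4, the other bifunctional enzyme, fell in KO males with TMM scaling (log2 fold change -0.27, SE 0.09, edgeR adjusted p = 0.0337), while its value on library totals was just above 0 with an adjusted p of 0.993, and the call was lost without KO-CTD 298, KO-CTD 303, KO-CTD 311, KO-HFC 414 or KO-HFC 540 (adjusted p = 0.0512 to 0.111).

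A ratio of read counts within 1 library does not depend on the scaling, so 6 peroxisomal enzymes were set over their mitochondrial counterparts. These ratios were chosen after the data were seen and are given without a test. Ehhadh over Hadha was 0.521 ± 0.0823 in the CT males fed CTD and 1.49 ± 0.354 in those fed HFC (mean ± SD, n = 4), and 0.629 ± 0.0949 and 1.54 ± 0.263 in KO males. In females it was 1.08 ± 0.0215 and 1.51 ± 0.115 in CT and 1.02 ± 0.102 and 1.999 ± 0.324 in KO animals (n = 3). The diets did not overlap in any of these 4 pairs of groups. Averaged over genotypes, the log2 ratio was higher on HFC by 1.39 (SE 0.14) in males and 0.72 (SE 0.09) in females, and leaving out any 1 animal gave 1.33 to 1.47 and 0.66 to 0.78. For Acaa1b over Acaa2 the difference was 0.85 (SE 0.10) in males and 0.63 (SE 0.12) in females. For the other pairs the differences were smaller. Eci2 over Eci1 differed by -0.24 (SE 0.07) in males and 0.067 (SE 0.11) in females. Decr2 over Decr1 differed by -0.043 (SE 0.07) in males and 0.0027 (SE 0.09) in females, where the genotypes differed in sign. It was 0.887 ± 0.0282 and 1.02 ± 0.0351 in CT females, without overlap between diets, and 1.02 ± 0.104 and 0.895 ± 0.151 in KO females, with overlap. Hsd17b4 over Hadha differed by 0.023 (SE 0.06) and 0.10 (SE 0.08), and Acaa1a over Acaa2 by 0.22 (SE 0.07) and 0.058 (SE 0.09).

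**Figure D3:**
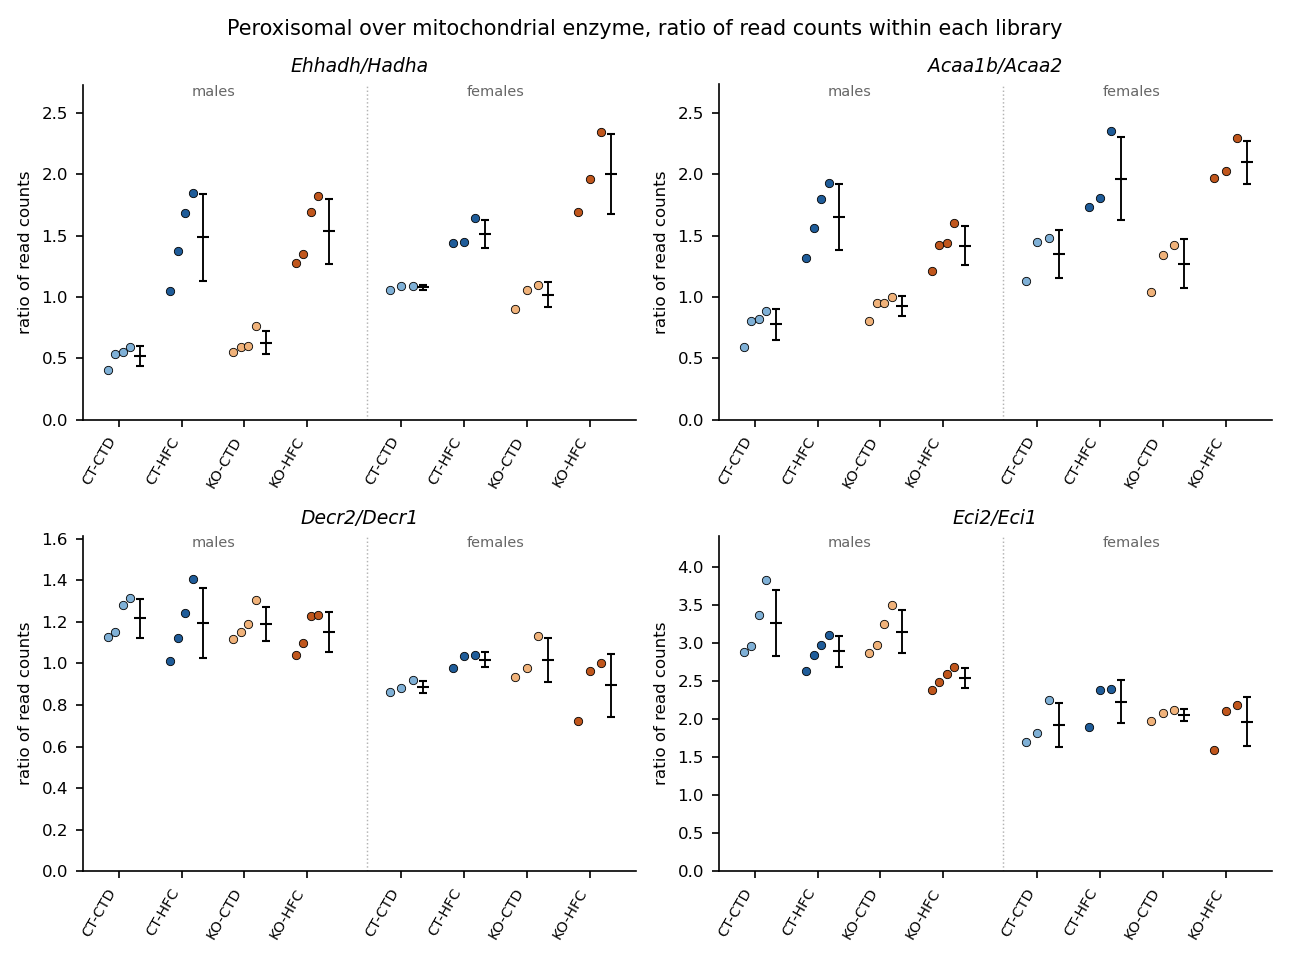
Ratio of the read count of a peroxisomal enzyme to that of a mitochondrial one within each library, by genotype and diet, males left and females right of the dotted line; points are animals, and the bar beside each group is its mean with SD. Ehhadh over Hadha is higher on HFC without overlap in all 4 pairs of groups (0.521 against 1.49 in CT males), whereas Decr2 over Decr1 overlaps between diets in both male genotypes and in KO females.

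The omega-oxidation genes and the thioesterases varied widely between males of a group. The median coefficient of variation over the 5 omega-oxidation genes was 24.7% (CTD) and 37.5% (HFC) in CT males and 16.5% and 47.8% in KO males, against 10.45%, 8.36%, 4.05% and 9.36% over the 9 spiral genes. Over the 4 thioesterases it was 39.6%, 47.8%, 17.1% and 41.1%. The female omega-oxidation median on CTD was 9.29% in CT and 16.3% in KO animals, with 16.5% and 40.7% on HFC. Cyp4a14 is a fatty acid hydroxylase much induced by PPAR alpha ligands. CT males had Cyp4a14 levels of 116, 137, 402 and 631 CPM on CTD and 334, 668, 1083 and 1572 on HFC. In KO livers of males Cyp4a14 stood at 207, 639, 697 and 823 CPM with CTD and 133, 344, 528 and 1036 with HFC. In CT females Cyp4a14 was at 1062, 1204 and 1300.4 CPM on CTD and 1235, 1530.3 and 1837 on HFC, and in KO females at 603, 1263 and 1835 and 595, 1399 and 1425. Its levels overlapped between diets in all 4 pairs of groups, and single livers of the same group differed by as much as the groups did. Cyp4a14 did not pass in CT males (log2 fold change 1.51, SE 0.73, edgeR adjusted p = 0.168) or KO males (log2 fold change -0.21, SE 0.71, edgeR adjusted p = 0.859). Cyp4a10, its neighbour on chromosome 4, also varied widely. Cyp4a10 measured 241, 336, 455 and 836 CPM in the CT males fed CTD and 358, 487, 739.8 and 858 in those fed HFC. KO males gave 327, 669.6, 701 and 703 CPM on CTD against 187, 324, 416 and 729 on HFC. Female livers held 957, 1138 and 1455 CPM of Cyp4a10 (CT, CTD), 917, 1169.8 and 1187 (CT, HFC), 898, 1147 and 1490.0 (KO, CTD) and 392, 793 and 1071 (KO, HFC). Diet groups overlapped throughout, and the male values of Cyp4a10 were 0.39 (edgeR adjusted p = 0.599) in CT and -0.54 (edgeR adjusted p = 0.423) in KO animals.

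Cyp4a32 was the only omega-oxidation gene that passed a diet comparison. In CT males it was at 31.7, 52.3, 52.4 and 54.8 CPM on CTD and 19.5, 20.6, 22.6 and 23.5 on HFC, and in KO males at 32.5, 38.2, 38.7 and 45.1 and 17.4, 21.6, 21.6 and 25.2. No overlap was seen between diets, although 1 CT male on CTD stood low, and the females were apart in the same direction. Cyp4a32 fell in CT males (log2 fold change -1.15, SE 0.15, edgeR adjusted p = 0.000195) and KO males (log2 fold change -0.85, SE 0.15, edgeR adjusted p = 0.0007), and both falls still passed on library totals, at -0.92 (adjusted p = 0.000826) and -0.57 (adjusted p = 0.0117). Its transcript is 97.2% identical to that of Cyp4a10 over their aligned bases and 96.0% to that of Cyp4a31, so its counts may include reads of those copies. Cyp4a31 did not pass in any of the 4 comparisons with TMM scaling and was called higher in KO females on library totals, at 0.71 (adjusted p = 0.0484). Aldh3a2, which oxidises fatty aldehydes, did not pass either. With CTD, the CT males had 317, 328, 364 and 422 CPM of Aldh3a2 transcripts, and with HFC 329, 461, 467 and 516. For the KO males the levels of Aldh3a2 were 400.3, 415, 422 and 502 CPM on CTD and 369, 377, 416 and 418 on HFC. CT females gave 469.5, 485 and 514 CPM on CTD and 392, 433 and 511 on HFC, and KO females 456, 472 and 512 and 301, 466 and 482. The diet groups of Aldh3a2 overlapped throughout, and its value in CT males was 0.31 (edgeR adjusted p = 0.0934), which was 0.55 (adjusted p = 0.00644) on library totals.

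Of the 4 thioesterases, which lie together on chromosome 12, none passed in males or in CT females, and Acot4 fell in KO females. Acot1 acts in the cytosol. In males, Acot1 was at 26.2, 39.3, 50.5 and 68.9 CPM in CT livers on CTD and at 42.1, 47.4, 80.1 and 88.99 on HFC. The KO males had 46.6, 56.7, 67.1 and 78.1 CPM on CTD and 32.6, 32.7, 53.2 and 77.4 on HFC. The females had 56.01, 77.7 and 92.98 CPM (CT on CTD), 98.1, 116 and 129 (CT on HFC), 41.5, 68.5 and 101 (KO on CTD) and 44.5, 93.04 and 109 (KO on HFC). Only the CT females were apart by diet, with HFC higher, at 0.60 (edgeR adjusted p = 0.373). Acot3, a peroxisomal member, was at far lower levels in the male table than in the female one, which was scaled separately. CT males had Acot3 levels of 4.27, 6.23, 17.5 and 35.2 CPM on CTD and 9.26, 11.7, 33.7 and 33.7 on HFC. In KO livers of males Acot3 stood at 11.9, 17.5, 18.1 and 21.6 CPM with CTD and 6.49, 8.76, 12.99 and 26.5 with HFC. In CT females Acot3 was at 224, 297 and 357 CPM on CTD and 111, 135 and 216 on HFC, and in KO females at 211, 272 and 286 and 33.7, 139.9 and 154. Both female comparisons of Acot3 were apart, with HFC lower, and neither passed: -0.92 (edgeR adjusted p = 0.296) in CT and -1.23 (edgeR adjusted p = 0.131) in KO animals. Acot4, also peroxisomal, was at 68.95, 71.97 and 83.1 CPM in KO females on CTD and 24.3, 49.2 and 49.7 on HFC, without overlap. It fell with TMM scaling (log2 fold change -0.86, SE 0.23, edgeR adjusted p = 0.0389) and had -0.57 (adjusted p = 0.0664) on library totals, and the call was lost without KO-CTD 307, KO-CTD 309, KO-CTD 317 or KO-HFC 412 (adjusted p = 0.0534 to 0.12). Acot2, the mitochondrial member, shares 93.8% of aligned bases with Acot1, so both levels are uncertain, and its largest value was 0.91 (edgeR adjusted p = 0.115) in CT males, which became 1.15 (adjusted p = 0.0469) on library totals.

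Relations between animals of a group were computed for 6 pairs of genes in each sex. The pairs were chosen with earlier results of these data known, and the adjustment over 12 relations does not cover that choice. Other pairs of genes were not computed, so how common such values are among all genes is not known. After subtracting each group's mean from log2 CPM, Cyp4a10 and Cyp4a14 correlated over the 16 males with Pearson r = 0.96 (permutation p = 4e-05, adjusted over 12 relations 0.00048) and Spearman rho = 0.92 (permutation p = 1e-04, adjusted 0.0012). Without the 2 animals farthest from the median r was 0.95. Over the 12 females r was 0.82 (permutation p = 0.011, adjusted 0.033), rho was 0.80 (permutation p = 0.0176, adjusted 0.0527) and r was 0.75 without the 2 farthest animals. Acot1 and Cyp4a14, which lie on different chromosomes, correlated with r = 0.87 (permutation p = 0.00046, adjusted 0.00276), rho = 0.88 (permutation p = 0.00023, adjusted 0.00138) and, without the 2 farthest animals, r = 0.85 in males. In females the Acot1 values were r = 0.93 (permutation p = 0.00711, adjusted 0.0284), rho = 0.81 (permutation p = 0.0153, adjusted 0.0527) and r = 0.82 without the 2 farthest. Vnn1 against Cyp4a14 did not pass in males, with r = 0.41 (permutation p = 0.14, adjusted 0.336), rho = 0.59 (permutation p = 0.028, adjusted 0.0672) and r = 0.48 without the 2 farthest animals. In females it had r = 0.06 (permutation p = 0.861, adjusted 0.986) and rho = 0.06 (permutation p = 0.854, adjusted 0.897). None of the other relations computed, which paired Pdk4 with Angptl4, Cpt1a and Ppargc1a, passed in either sex.

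**Figure D4:**
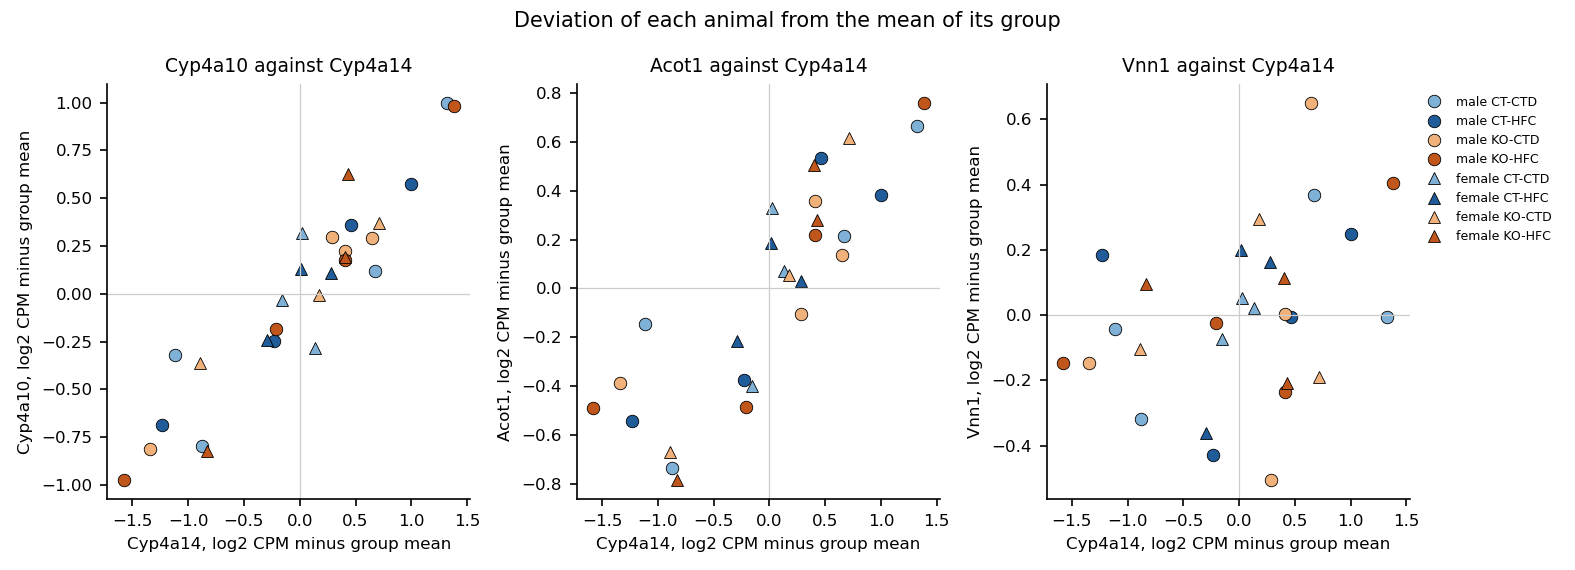
Deviation of each animal from the mean of its group in log2 CPM, for Cyp4a10, Acot1 and Vnn1 (vertical axes) against Cyp4a14 (horizontal axes); circles are males, triangles are females, and colours give genotype and diet. Cyp4a10 and Acot1 rise with Cyp4a14 (r = 0.96 and 0.87 in males), whereas Vnn1 scatters more widely (r = 0.41 and rho = 0.59 in males).

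Single animals also ran high or low across much of the set. The male KO-HFC 415 had the highest level of its group for 30 of the 38 genes and the lowest for 0. Among females, CT-HFC 512 was highest in its group for 34 genes, KO-CTD 307 was highest for 28 and KO-HFC 412 was lowest for 28. How many of all genes were highest or lowest in these animals was not counted. The pattern is therefore not shown to be particular to this set. The number of genes that passed in KO females depended on the animals included: it was 0 without KO-CTD 307, 309 or 317, 1 without KO-HFC 412 or 419, and 8 without KO-HFC 413.

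The remaining PPAR alpha targets act outside the oxidation routes. Angptl4 is a secreted inhibitor of lipoprotein lipase. Angptl4 measured 156, 159, 168 and 171 CPM in the CT males fed CTD and 116, 123, 128 and 153 in those fed HFC. KO males gave 130.2, 135, 166 and 166 CPM on CTD against 65.1, 78.8, 98.6 and 113 on HFC. Both male genotypes were apart by diet, with HFC lower. Angptl4 fell in KO males (log2 fold change -0.75, SE 0.14, edgeR adjusted p = 0.000786; on library totals -0.48, adjusted p = 0.0104) and had -0.33 (edgeR adjusted p = 0.107) in CT males. Female livers held 126, 136 and 183 CPM of Angptl4 (CT, CTD), 94.99, 118 and 215 (CT, HFC), 116, 154 and 200.4 (KO, CTD) and 98.97, 129 and 156 (KO, HFC). The female groups overlapped, at -0.057 (edgeR adjusted p = 0.941) in CT and -0.29 (edgeR adjusted p = 0.572) in KO animals. Fabp1 carries fatty acids through the cytosol. With CTD, the CT males had 2112, 3003, 3183 and 3246 CPM of Fabp1 transcripts, and with HFC 1506, 1923, 1964 and 2381. For the KO males the levels of Fabp1 were 2407, 3084, 3351 and 3409.5 CPM on CTD and 1612, 1898, 1905 and 2082 on HFC. The KO males were apart by diet, and the CT males overlapped through 1 low animal on CTD and 1 high one on HFC. Fabp1 fell in CT males (log2 fold change -0.57, SE 0.16, edgeR adjusted p = 0.0183; on library totals -0.35, adjusted p = 0.11), a call lost without CT-CTD 301 or CT-HFC 543 (adjusted p = 0.0574 to 0.0621). In KO males it also fell (log2 fold change -0.71, SE 0.16, edgeR adjusted p = 0.00306; on library totals -0.44, adjusted p = 0.04). CT females gave 2900.5, 3272 and 3598 CPM on CTD and 2245, 2613 and 3531 on HFC, and KO females 1626, 2144 and 2901 and 2536, 2636 and 2786. For Fabp1 the female diet groups overlapped, at -0.22 (edgeR adjusted p = 0.614) in CT and 0.25 (edgeR adjusted p = 0.502) in KO animals, and the latter was 0.56 (adjusted p = 0.0474) on library totals.

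Pdk4 restrains glucose oxidation when fat is burned. In males, Pdk4 was at 2.03, 2.13, 2.34 and 3.64 CPM in CT livers on CTD and at 2.12, 3.86, 3.951 and 4.32 on HFC. The KO males had 1.92, 2.504, 2.58 and 2.94 CPM on CTD and 2.07, 2.58, 4.24 and 5.81 on HFC. The females had 2.56, 3.86 and 5.55 CPM (CT on CTD), 3.29, 4.57 and 6.94 (CT on HFC), 3.54, 4.05 and 6.904 (KO on CTD) and 4.98, 5.39 and 7.303 (KO on HFC). Its levels were low and overlapped between diets everywhere, and the value in KO males was 0.57 (edgeR adjusted p = 0.173), which was 0.87 (adjusted p = 0.046) on library totals. Vnn1 encodes a pantetheinase of coenzyme A turnover. CT males had Vnn1 levels of 64.8, 78.5, 80.5 and 105 CPM on CTD and 51.9, 69.6, 79.4 and 82.9 on HFC. In KO livers of males Vnn1 stood at 55.7, 71.4, 79.3 and 124 CPM with CTD and 48.3, 51.4, 55.9 and 75.3 with HFC. In CT females Vnn1 was at 114, 122 and 125 CPM on CTD and 79.1, 114 and 117 on HFC, and in KO females at 88.97, 94.4 and 124 and 63.02, 77.8 and 78.8. Only the KO females were apart by diet for Vnn1, with HFC lower, at -0.49 (edgeR adjusted p = 0.0954).

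Whether the diet acted differently in the sexes was tested in 1 model over both tables, averaged over genotypes. None of the 38 genes passed by edgeR, where 0.81% of 14685 genes did. At an unadjusted p under 0.05 there were 3 higher and 3 lower (666 and 1028 of all genes), DESeq2 called Fabp1 and limma called none. The smallest p belonged to Ehhadh, whose log2 change in females was lower than that in males by 0.69 (difference -0.69, SE 0.20, edgeR adjusted p = 0.115). Fabp1 came next with a difference of 0.62 (SE 0.19, edgeR adjusted p = 0.132), which was 0.75 with an adjusted p of 0.0458 without the female KO-CTD 307. Cyp4a32 was the third, at 0.46 (SE 0.20, edgeR adjusted p = 0.354).

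No difference between genotypes passed for the 38 genes. By edgeR none of them did in KO against CT, on either diet in either sex, and none of all genes tested did (0% in each of the 4 comparisons). DESeq2 and limma also called 0 of the 38. Over all genes DESeq2 called 11 in males on CTD, 3 in males on HFC and 0 in females on either diet. On CTD the males had 2 genes higher and 0 lower at an unadjusted p under 0.05 (398 and 551 of all 14078 genes), and 32 of the 38 values were positive (6751 of all genes). Leaving out 1 animal gave 26 to 33 positive values. Crat was at 47.5, 53.4, 57.5 and 73.01 CPM in CT and 72.8, 73.5, 90.8 and 98.4 in KO males on CTD, with the groups overlapping (log2 fold change 0.53, SE 0.19, edgeR adjusted p = 0.705). Aldh3a2 had 0.28 (edgeR adjusted p = 0.735) and Cyp4a32 -0.31 (edgeR adjusted p = 0.748) there. On HFC the males had 0 higher and 4 lower at an unadjusted p under 0.05 (402 and 251 of all genes), and 36 of the 38 values were negative (34 on library totals; 6886 of all genes). Leaving out 1 animal gave 31 to 37 negative values. Angptl4 had the smallest p, with every KO male on HFC below every CT male on HFC (levels as given above; log2 fold change -0.55, SE 0.14, edgeR adjusted p = 0.958, unadjusted p = 0.00102). Eci2 was apart in the same way at -0.25 (edgeR adjusted p = 0.958), and Pex11a had -0.33 (edgeR adjusted p = 0.958). In all, 0 of the 38 genes did not overlap by genotype in males on CTD (3.99% of all genes, 1.94% higher and 2.05% lower), and Eci2 and Angptl4 did not on HFC, both lower (2.16% of all genes, 1.09% higher and 1.07% lower).

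In females on CTD 0 genes were higher and 1 was lower at an unadjusted p under 0.05 (199 and 247 of all 13999 genes). That gene was Fabp1 (log2 fold change -0.55, SE 0.22, edgeR adjusted p = 0.999), followed by Eci1 at -0.24 (edgeR adjusted p = 0.999) and Vnn1 at -0.23 (edgeR adjusted p = 0.999). On HFC the females had 0 higher and 1 lower (159 and 152 of all genes), and 35 of the 38 values were negative (33 on library totals; 6569 of all genes). That number was 25 without CT-HFC 512 and 26 without KO-HFC 412, with the median moving from -0.15 to -0.068 and -0.069. The gene with the unadjusted p under 0.05 was Vnn1 (log2 fold change -0.49, SE 0.17, edgeR adjusted p = 1), followed by Decr2 at -0.29 (edgeR adjusted p = 1) and Acaa1a at -0.27 (edgeR adjusted p = 1). In females 2 genes did not overlap by genotype on CTD (Cpt2 higher and Decr1 lower in KO; 9.17% of all genes, 4.47% higher and 4.7% lower) and 2 did not on HFC (Eci2 and Vnn1, both lower; 5.46% of all genes, 2.79% higher and 2.67% lower).

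**Figure D5:**
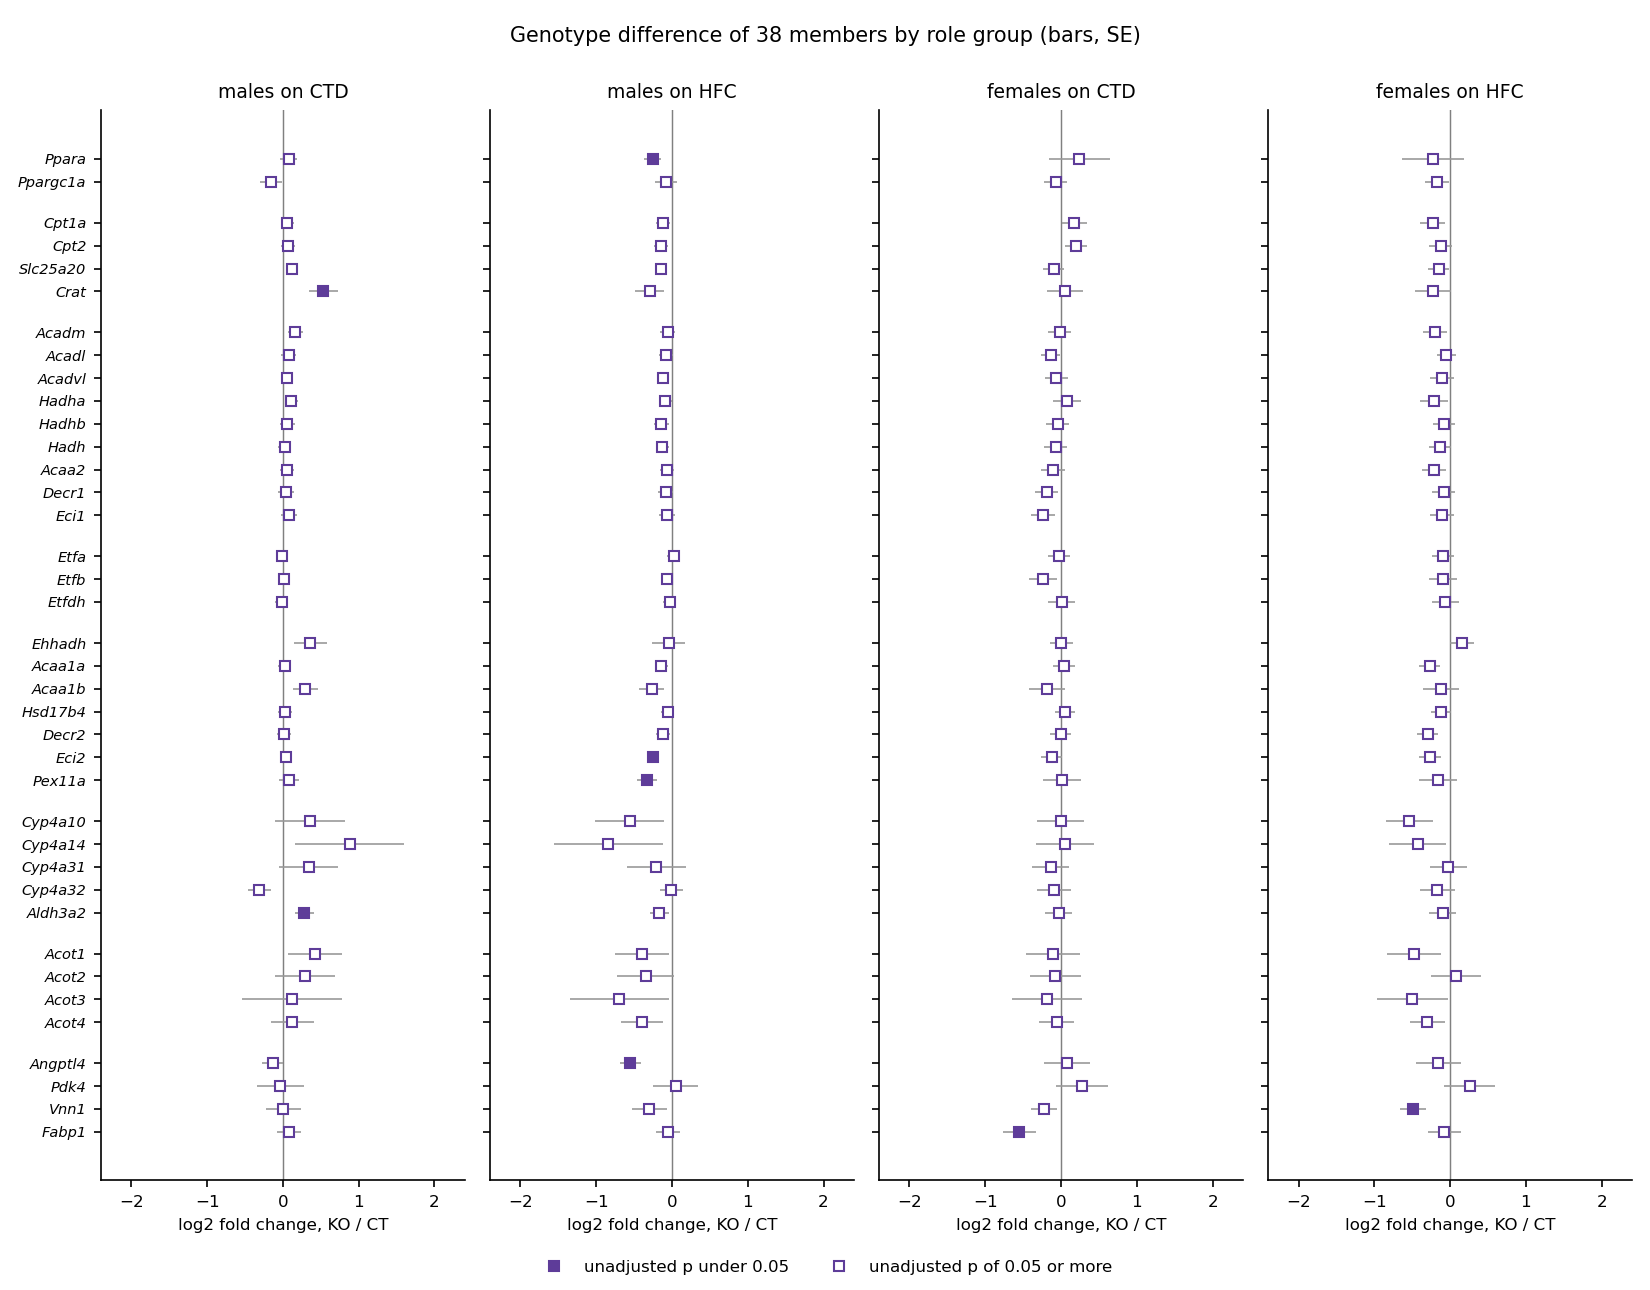
Log2 fold change of KO over CT for the 38 genes in males and females on each diet, grouped by role as in the plot of diet changes; squares are edgeR estimates, bars are SE, and filled squares have an unadjusted p under 0.05. No gene passed after adjustment, and in males on HFC 36 of 38 values lie below 0, against 34 on library totals.

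The difference of the diet change between genotypes was tested within each sex. In males none of the 38 genes passed the test of that difference by edgeR, DESeq2 or limma (0% of all genes by edgeR); 0 were higher and 7 lower at an unadjusted p under 0.05 (575 and 277 of all 14078 genes), and 34 of 38 differences were negative (6853 of all genes). Crat had the smallest p, with a diet change lower in KO by 0.83 (difference -0.83, SE 0.26, edgeR adjusted p = 0.727). Eci2 followed at -0.29 (edgeR adjusted p = 0.765) and Aldh3a2 at -0.45 (edgeR adjusted p = 0.78). The larger count of falls in KO than in CT males is therefore not shown to be a difference between genotypes. In females none passed by any of the 3 tools (0% of all genes by edgeR), and 0 had an unadjusted p under 0.05 (323 higher and 223 lower of all genes). The 3 smallest p-values belonged to Cpt1a at -0.41 (edgeR adjusted p = 0.992), Acaa1a at -0.31 (edgeR adjusted p = 0.992) and Fabp1 at 0.47 (edgeR adjusted p = 0.992).

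Another 100 genes of the same pathways, listed by function, were read from the same fits. In CT males 95 of them were tested, of which 6 rose and 19 fell with a median of -0.14, against 10.6% higher and 9.4% lower of all genes. In KO males 5 rose and 43 fell of 95, with a median of -0.26, against 15.5% higher and 13.6% lower. In females 92 were tested, and 1 rose and 3 fell in CT (0.936% and 1.26% of all genes) and 4 rose and 12 fell in KO animals (3.94% and 4.65%). On library totals 15 rose and 6 fell in CT males (29.3% and 2.91% of all genes), and 13 rose and 14 fell in KO males (39.7% and 3.63%). In CT females 6 rose and 1 fell on library totals (12.1% and 1.04%), and in KO females 10 rose and 3 fell (24% and 2.71%). The counts by function below therefore hold for TMM scaling, and the shares of all genes given here apply to them. The 4 ketone body genes all fell in KO males (1 on library totals), and 2 of 4 fell in CT males (1 on library totals).

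Among 17 other oxidation enzymes 0 rose and 8 fell in KO males (2 and 3 on library totals), and 0 rose and 4 fell in CT males (2 and 1). Hsd17b10, a mitochondrial hydroxyacyl-CoA dehydrogenase, fell in all 4 diet comparisons: -0.72 (edgeR adjusted p = 0.00283) in CT males, -0.61 (edgeR adjusted p = 0.00525) in KO males, -0.81 (edgeR adjusted p = 0.0393) in CT females and -0.85 (edgeR adjusted p = 0.013) in KO females. All 4 values of Hsd17b10 still passed on library totals. With TMM scaling its call in CT females was lost in 4 of 6 fits that left out 1 animal (edgeR adjusted p up to 0.19). In KO females it was lost in 2 of 6 (edgeR adjusted p up to 0.0635). Of 18 genes of peroxisome transport and assembly 0 rose and 10 fell in KO males (2 and 2 on library totals), and 0 rose and 4 fell in CT males (2 and 1). Among them was the fatty acid transporter Abcd3, with -0.66 (edgeR adjusted p = 0.000237) in KO males and -0.39 (adjusted p = 0.00581) on library totals. Of 11 other genes of omega-oxidation and thioesterases 1 rose and 4 fell in KO males (2 and 1 on library totals), and 1 rose and 3 fell in CT males (2 and 1).

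Of 9 genes of uptake and activation, 1 rose and 4 fell in KO males (2 and 0 on library totals), and 2 fell in CT males (1 on library totals). Cd36, a fatty acid translocase, was at 20.5, 20.7, 24.7 and 47.4 CPM in KO males on CTD and 47.7, 82.4, 84.1 and 86.3 on HFC (log2 fold change 1.41, SE 0.45, edgeR adjusted p = 0.0313). Its value on library totals is not given here. The 3 genes of this list with the smallest adjusted p in KO males all fell: Slc27a2 (-0.53, edgeR adjusted p = 0.00859), Acsl5 and Acsl1 (-0.80, edgeR adjusted p = 0.0157). On library totals Slc27a2 had -0.26 (adjusted p = 0.083) and Acsl1 -0.53 (adjusted p = 0.0703). The acyl-CoA synthetase Acsl5 fell with TMM scaling in all 4 comparisons, by 0.75 in CT males, 0.61 in KO males, 0.82 in CT females and 0.72 in KO females on the log2 scale (edgeR adjusted p = 0.00451, 0.0108, 0.033 and 0.0241). On library totals Acsl5 passed in CT males alone among these comparisons, at -0.54 (adjusted p = 0.0406). Its TMM call in CT females was lost in 6 of 6 fits that left out 1 animal (edgeR adjusted p up to 0.13). In KO females it was lost in 3 of 6 (edgeR adjusted p up to 0.108). Among 20 other known PPAR alpha targets 1 rose and 9 fell in KO males (2 and 7 on library totals), and 3 rose and 3 fell in CT males (5 and 1). Fgf21, the hepatokine induced by PPAR alpha, was at 1.24, 1.34, 1.796 and 2.29 CPM in CT males on CTD and 1.74, 2.78, 25.5 and 34.1 on HFC. Only 2 of the 4 CT males on HFC were far above the CTD animals (log2 fold change 3.27, SE 0.95, edgeR adjusted p = 0.0298), and the call was lost without CT-CTD 301, CT-CTD 305, CT-CTD 313, CT-CTD 320, CT-HFC 416 or CT-HFC 418 (adjusted p = 0.0524 to 0.0791). In KO females Fgf21 was at 1.02, 1.61 and 2.01 CPM on CTD and 4.36, 10.6 and 12.3 on HFC, fully apart (log2 fold change 2.56, SE 0.40, edgeR adjusted p = 0.00233). Fgf21 did not pass in KO males, at 0.86 (edgeR adjusted p = 0.514), with 1.17 (adjusted p = 0.302) on library totals. In CT females it did not pass with TMM scaling, at 1.41 (edgeR adjusted p = 0.0811), and did on library totals, at 1.69 (adjusted p = 0.0228). Of 16 receptors and co-regulators 2 rose and 4 fell in KO males (3 and 0 on library totals). Nr0b2, the corepressor SHP, rose in CT males (log2 fold change 1.35, SE 0.22, edgeR adjusted p = 0.00109), and in KO males it rose as well (0.68, edgeR adjusted p = 0.0319), a call lost without KO-CTD 298, KO-CTD 303, KO-CTD 304, KO-HFC 415 or KO-HFC 539 (adjusted p = 0.0554 to 0.0951). Rxra, the partner receptor of PPAR alpha, fell in KO males (log2 fold change -0.48, SE 0.09, edgeR adjusted p = 0.00117; on library totals -0.20, adjusted p = 0.0548).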

How the data were processed

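RNA-seq libraries of 28 mouse livers (16 male, 12 female) were used. For each sex the authors deposited whole-number read counts by gene, and the same data as CPM in a second file. The deposited CPM equal each count over its library total within 1e-04 for 100% of values. FastQC, edgeR and the GRCm38 (mm10) build are named in the submitters' processing notes, per the labels. No aligner, counting tool, annotation or strand setting is named (not given in the sources used here), and antisense or near-identical genes may share reads.

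Counts were analysed in R 4.3.3 with edgeR 4.0.16 (TMM, filterByExpr with a minimum count of 10, robust quasi-likelihood F test, Benjamini-Hochberg over all tested genes). The 4 groups of a sex were fitted together, and the sex difference was fitted on the joined tables. Alternatives used DESeq2 1.42.0, limma 3.58.1 on log2(deposited CPM + 1 or 0.1), DESeq2 size factors, library totals, no filter, only the groups compared, and each animal left out. Correlations used 100000 permutations within groups (two-sided, scipy 1.17.1). The fits were tested on simulated data with known changes in the diet comparison of CT animals. In males 36% of log2 changes of 0.5 and 70% of those of 1 were recovered, with 8 false calls among 13713 unchanged genes. In females the shares were 6.12% and 57.1%, with 5 false calls among 13591. Changes of 0.5 or less were thus mostly missed, above all in females. The closest pair of animals of a group differed by 11.9 times sampling noise (chi-square per degree of freedom, 36 pairs), so none was merged.

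Members, roles, pathway lists and tests were chosen with earlier results of these data known. Values per animal are given for a core of 18 named members whatever their result. Beyond it, members that passed a diet comparison were named, up to 4 a role by adjusted p. Where no member passed, the 3 with the smallest p were named, and of other pathway genes up to 3 a list that passed. Cd36, the gene of uptake and activation that rose in KO males, was named beyond that limit. Further members (Eci1, Acaa1a, Acot2, Cyp4a31, and Hadhb and Decr1) were named to account for their role.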

Additional observations from a re-analysis of the deposited data

Results flagged for a closer look

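Within the male groups of 4, the gap between an extreme animal and its nearest neighbour was compared with the whole range of the group for each of the 38 genes. In 4 cases the share of the range passed Dixon's 95% limit for 4 values, and chance alone passes it in about 1 in 20 groups. With 38 genes in each of 4 male groups examined, 4 cases are fewer than that rate would give. Hadhb in KO males on CTD was highest in animal 298, at 206 CPM against 191 in the next animal (0.852 of the range). Etfdh in CT males on HFC was highest in animal 416, at 212 CPM against 185 (0.856). Cyp4a10 in KO males on CTD was lowest in animal 304, at 327 CPM against 669.6 (0.911). Cyp4a32 in CT males on CTD was lowest in animal 301, at 31.7 CPM against 52.3 (0.892).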

How the results depend on the processing

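No paired analysis was possible because every animal carries its own number and no number is shared between groups. Counts of the 38 genes that passed moved by over 1.5 times as follows. On library totals 11 passed in KO males and 1 in CT females. With limma on log2(deposited CPM + 1) 6 passed in CT males, 11 in KO males and 1 in CT females, and with a pseudocount of 0.1 the counts were the same 6, 11 and 1. DESeq2 gave 8 in KO females and 1 for the sex difference. Fitting only the groups compared gave 1 in CT females and 0 in KO females. Leaving out 1 animal gave 0 to 8 in KO females and 0 to 1 for the sex difference. In CT males it gave 8 to 12 and in KO males 16 to 24, which stayed within 1.5 times of the main counts. Log2 values reversed to positive on library totals and in limma with pseudocounts of 1 and 0.1 for Acad9 in CT males (0.0362, 0.0311 and 0.0318), and in KO males for Acadvl (0.0322, 0.0315 and 0.0316), Hadh (0.0134, 0.0116 and 0.0116), Hsd17b4 (0.00109, 0.000891 and 0.000894), Pex2 (0.0199, 0.0179 and 0.0185) and Ncoa2 (0.00858, 0.00803 and 0.00813), and on library totals alone for Decr1 (0.00021). Vnn1 against Cyp4a14 in females gave r = -0.15 without the 2 farthest animals. The causes were not tested, except that TMM factors differed by diet (0.842 to 0.999 on CTD, 1.0 to 1.19 on HFC). Of 12647 values of single genes under an alternative, 12209 kept their side of the threshold without a called value changing sign (860 of them changed sign without passing under either setting), 331 no longer passed, 88 newly passed and 19 reversed. With 3 or 4 animals a group, changes smaller than the spread between animals are not detectable.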

Other observations

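Together the 38 genes took 0.956% ± 0.148 of all counts for CTD and 1.097% ± 0.1796 for HFC in CT males (mean ± SD, n = 4), and 1.05% ± 0.0861 and 0.986% ± 0.124 in KO males. In females the shares were 1.19% ± 0.0689 and 1.37% ± 0.0826 in CT and 1.11% ± 0.172 and 1.25% ± 0.187 in KO animals (SD, n = 3). Genes encoded by mitochondrial DNA took 11.9% ± 0.635 (CTD) and 10.7% ± 0.541 (HFC) of the counts of CT males and 12.3% ± 0.447 and 10.8% ± 0.502 of those of KO males. In females they took 13.1% ± 1.19 and 9.82% ± 1.49 in CT and 11.7% ± 1.13 and 10.1% ± 0.955 in KO animals. Of 12 circadian clock genes, a set that follows the hour of harvest, 1 fell in CT males and 5 fell in KO males (0 and 1 on library totals), and of 11 tested in females 0 passed in CT and 3 fell in KO animals (0 and 3 on library totals).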
